A study of Homo sapiens with 45 samples.

Results

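The p53 pathway target genes are 30 genes, listed by symbol, that p53 is known to switch on, and they were found by exact symbol match among the 28278 gene names counted in HCT116 cells. All 30 symbols were present, and 28 of them had enough counts to be tested among 13933 genes when HNRNPK was knocked down. The other 2 were EDA2R, with 0 to 6 counts per library, and SPATA18, with 5 to 14 counts per library.

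HCT116 is a human colon cancer line with wild-type p53. The series holds 45 samples, 10 of them RNA libraries and 35 from chromatin immunoprecipitation (ChIP) with its inputs, and it compared cells treated with an siRNA against HNRNPK with cells treated with a nontargeting siRNA. HNRNPK encodes an RNA- and DNA-binding protein that is known as a cofactor of p53. Cells of every RNA and ChIP group received 25 nM siRNA and were collected after 72 hours. The siNTC5 group (nontargeting, n = 4) and the siHNRNPK group (n = 4) were each split over library kits, with replicates 1 and 2 made with the Illumina TruSeq stranded mRNA kit and replicates 3 and 4 with the Illumina Stranded mRNA Ligation kit. Their RNA was purified on a Maxwell instrument. The Scramble group (n = 2) is labelled as nontargeting too, but its RNA was purified with a Qiagen RNeasy kit, its libraries were TruSeq, and its counts came in separate tables. The labels do not say whether the replicates of a group came from separate cultures, so the p-values measure the spread between these samples, which may be technical.

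p53 is a transcription factor that is held low in unstressed cells, because the ubiquitin ligase MDM2 binds it and marks it for destruction. When DNA is damaged or growth is stressed, p53 accumulates and binds DNA elements made of paired half-sites, and its targets halt the cell cycle, start apoptosis, aid DNA repair, alter metabolism and feed back on p53 itself. In colon cancer cells with wild-type p53, CDKN1A and MDM2 are the targets most often read as a measure of its activity.

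Library totals ran from 12107280 to 23633851 counts in the siNTC5 and siHNRNPK libraries and were 55007171 and 59209169 in the Scramble libraries. HNRNPK itself fell from 884 ± 77.9 CPM (read counts divided by the library's TMM-scaled size; SD, n = 4) with siNTC5 to 198 ± 45.3 (SD, n = 4) with siHNRNPK, or 22.4% of control, with a log2 fold change of -2.17 and an adjusted p of 7.29e-15 by edgeR's quasi-likelihood test. The 4 knockdown libraries all lay below the 4 controls, and the two-sided exact permutation p was 0.0286, the smallest that 4 against 4 allows. Of 8 epithelial markers, 7 were tested and 6 were called, 4 higher and 2 lower, and their summed level was 2805 to 3297 CPM with siNTC5, 4489 to 5528 CPM with siHNRNPK and 4438 to 4571 CPM with Scramble. Of 10 markers of fibroblasts, leukocytes and endothelium, 3 had enough counts and 2 of those (COL1A1 and VWF) were higher in the knockdown. Their sum was 61.9 to 97.8 CPM with siNTC5, 99.3 to 147 CPM with siHNRNPK and 88.5 to 99.3 CPM with Scramble, with CD3E and LUM at 0 in every library, and the part of these markers in the members' differences was not tested. In bulk RNA, fewer cells of a type and less RNA per cell cannot be told apart.

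The question of the first comparison was how transcripts of p53 targets differ after HNRNPK knockdown. The targets did not move one way. Of the 28 tested members, 22 (78.6%) passed an adjusted p of 0.05 by edgeR's quasi-likelihood test, against 71.5% of all 13933 genes tested, so the share is near the background. By direction, 15 members were higher, against 35.5% of all genes, and 7 were lower, against 36.1% of all genes. The members' median log2 fold change was 0.18, beside -0.0042 for all tested genes, and the median size without sign was 0.41 for both. Only 3 members changed by a log2 fold change of at least 1, PLK2 upward and XPC and TP53I3 downward, where 15.8% of all genes did, 7.47% upward and 8.28% downward. In 12 members all 4 knockdown libraries were above all 4 controls, against 28.4% of all genes, and in 4 members all were below, against 28.1%, or 56.5% of all genes in either direction. The plot of log2 fold changes by role shows each tested member with its values in the TruSeq and the Ligation libraries.

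**Figure D1:**
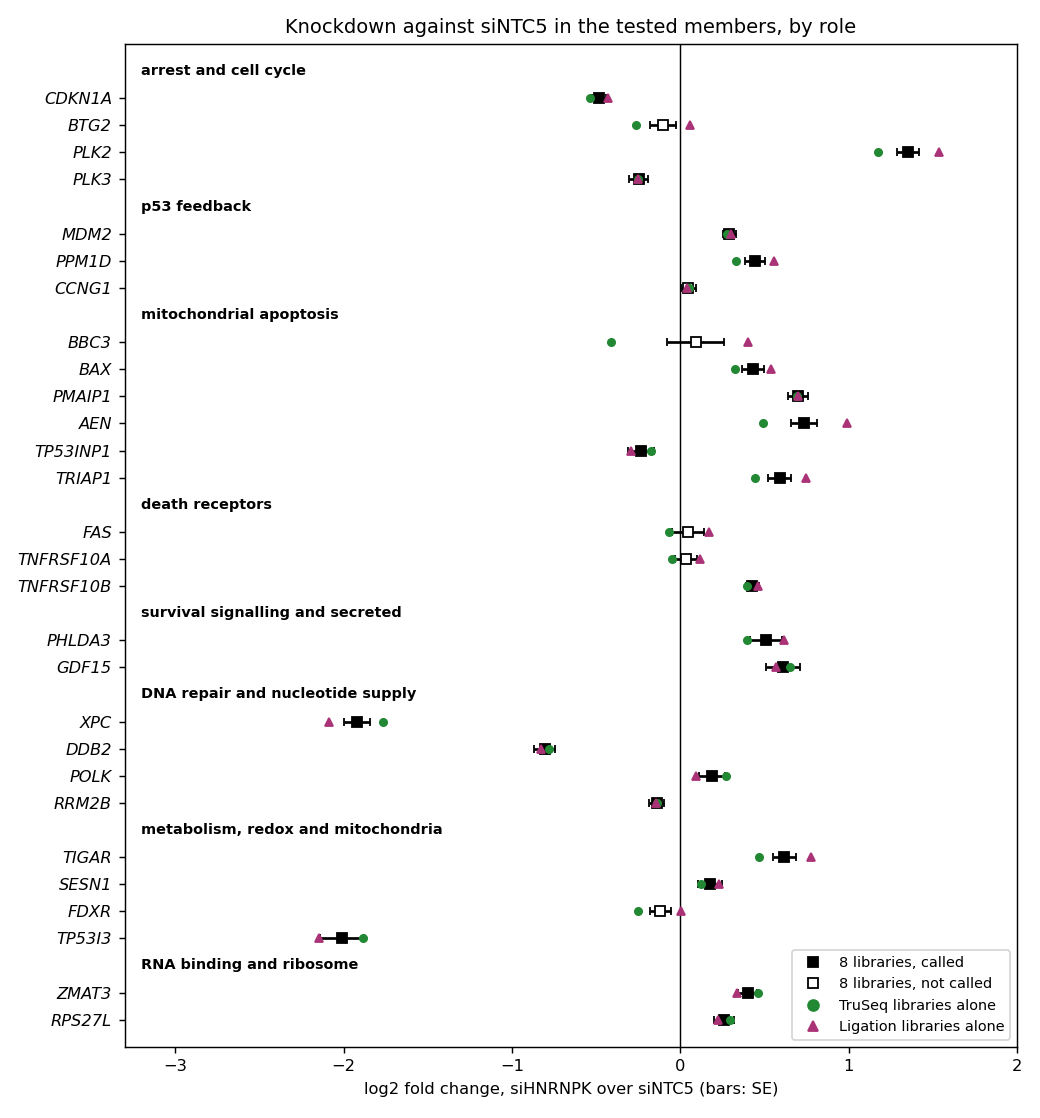
The x axis is the log2 fold change of siHNRNPK over siNTC5 for each of the 28 tested members, grouped by role, with squares for the fit to 8 libraries, bars for its SE, filled squares for called genes, and circles and triangles for the TruSeq and Ligation libraries fitted alone. XPC and TP53I3 lie near -2, PLK2 above 1, and the remaining members between -0.81 and 0.73.

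Promoter sequence was read beside these values. The members were listed as genes that p53 switches on, so their share of p53 half-sites or full sites is not independent of that choice. RefSeq promoter windows (GRCh38.p14, 250 bases before to 50 after a transcript start) matched 25 of the 30 members, with 37 windows in all, since some genes have several starts. TNFRSF10A, TNFRSF10B, TP53INP1, RRM2B and PHLDA3 had none in the table. Each window was searched on both strands for the p53 half-site consensus, a 10-base pattern with degenerate ends around a fixed C and G. An exact half-site was present in 7 of the 37 windows (18.9%), those of PLK2, SESN1, FAS, DDB2, RPS27L, AEN and FDXR, where 6.64% of 34943 windows in the whole table held one. The median GC content was 65.3% in the members' windows and 64.7% in the windows of tested genes. Of the 7 genes, PLK2, AEN, RPS27L and SESN1 were higher after knockdown, DDB2 was lower, and FAS and FDXR were not called. Of all genes tested, 35.5% were higher and 36.1% lower. A match is a description of the sequence and not evidence of binding, and p53 elements of many targets are known to lie outside such short windows, in first introns or further upstream.

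Among the targets that halt the cell cycle, CDKN1A and PLK2 went in opposite directions. CDKN1A encodes p21, the inhibitor of cyclin-dependent kinases through which p53 arrests cells. CDKN1A stood at 344, 335, 402 and 404 CPM in siNTC5 replicates 1 to 4 and at 238, 228, 299 and 302 CPM in siHNRNPK replicates 1 to 4. The groups did not overlap, and the Ligation libraries read higher than the TruSeq libraries in both groups. CDKN1A fell to 71.8% of the control mean, which is -0.48 ± 0.041 (SE) on the log2 scale (adjusted p 5.12e-09 by edgeR's quasi-likelihood test), and it was lower in both kits alone, at -0.54 in the TruSeq and -0.43 in the Ligation libraries.

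PLK2, a polo-like kinase that acts in centriole duplication and the stress response, had the largest increase of any tested member. Its RefSeq promoter holds 1 exact half-site, whose first base lies 132 bases before the start, and is shown for that reason with the half-site in capitals (GRCh38.p14, chr5:58460087-58460336, minus strand, the 250 bases before the transcript start, 5′ to 3′).
PLK2: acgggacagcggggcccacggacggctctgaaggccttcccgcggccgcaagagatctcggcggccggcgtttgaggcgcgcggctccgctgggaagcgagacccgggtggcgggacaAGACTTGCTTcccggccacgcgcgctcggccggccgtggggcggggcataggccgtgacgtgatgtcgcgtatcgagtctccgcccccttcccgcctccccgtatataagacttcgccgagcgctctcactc
PLK2 stood at 85.4, 94.6, 89.0 and 84.7 CPM in siNTC5 replicates 1 to 4 and at 196, 208, 262 and 244 CPM in siHNRNPK replicates 1 to 4. Every knockdown library was well above every control. PLK2 rose 2.55-fold, which is 1.35 ± 0.066 (SE) on the log2 scale (adjusted p 2.72e-12 by edgeR's quasi-likelihood test).

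PLK3, a related kinase, fell slightly, from 57.9 ± 6.38 to 48.7 ± 5.42 CPM (SD, n = 4 each). Its log2 fold change was -0.25 ± 0.056 (SE) and its adjusted p 0.000665 by edgeR, while the ranges of the groups overlapped. BTG2, an antiproliferative adaptor that recruits deadenylases to mRNA, was at 57.7 ± 4.26 and 54.0 ± 8.65 CPM, and its log2 fold change of -0.10 ± 0.078 (SE) was not called (adjusted p = 0.245 by edgeR).

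Of the 3 targets that feed back on p53, 2 rose and 1 was not called, where 35.5% of all genes were higher. MDM2, the ligase that degrades p53, stood at 241, 250.3, 235 and 243 CPM in siNTC5 replicates 1 to 4 and at 297, 295, 296 and 296 CPM in siHNRNPK replicates 1 to 4. The 4 knockdown libraries were nearly identical and all above the controls. MDM2 rose 1.22-fold, which is 0.29 ± 0.039 (SE) on the log2 scale (adjusted p 2.27e-06 by edgeR's quasi-likelihood test). PPM1D, the phosphatase WIP1 that reverses p53 and checkpoint phosphorylation, rose 1.36-fold (log2 fold change 0.44 ± 0.059 SE, adjusted p 2.11e-06 by edgeR). CCNG1, cyclin G1, which recruits a phosphatase to MDM2, stood at 194 ± 19.0 CPM with siNTC5 and 200 ± 22.0 CPM with siHNRNPK (SD, n = 4) and was not called (adjusted p = 0.365 by edgeR). So CDKN1A fell while MDM2 rose in the same libraries, each without overlap between the groups.

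**Figure D2:**
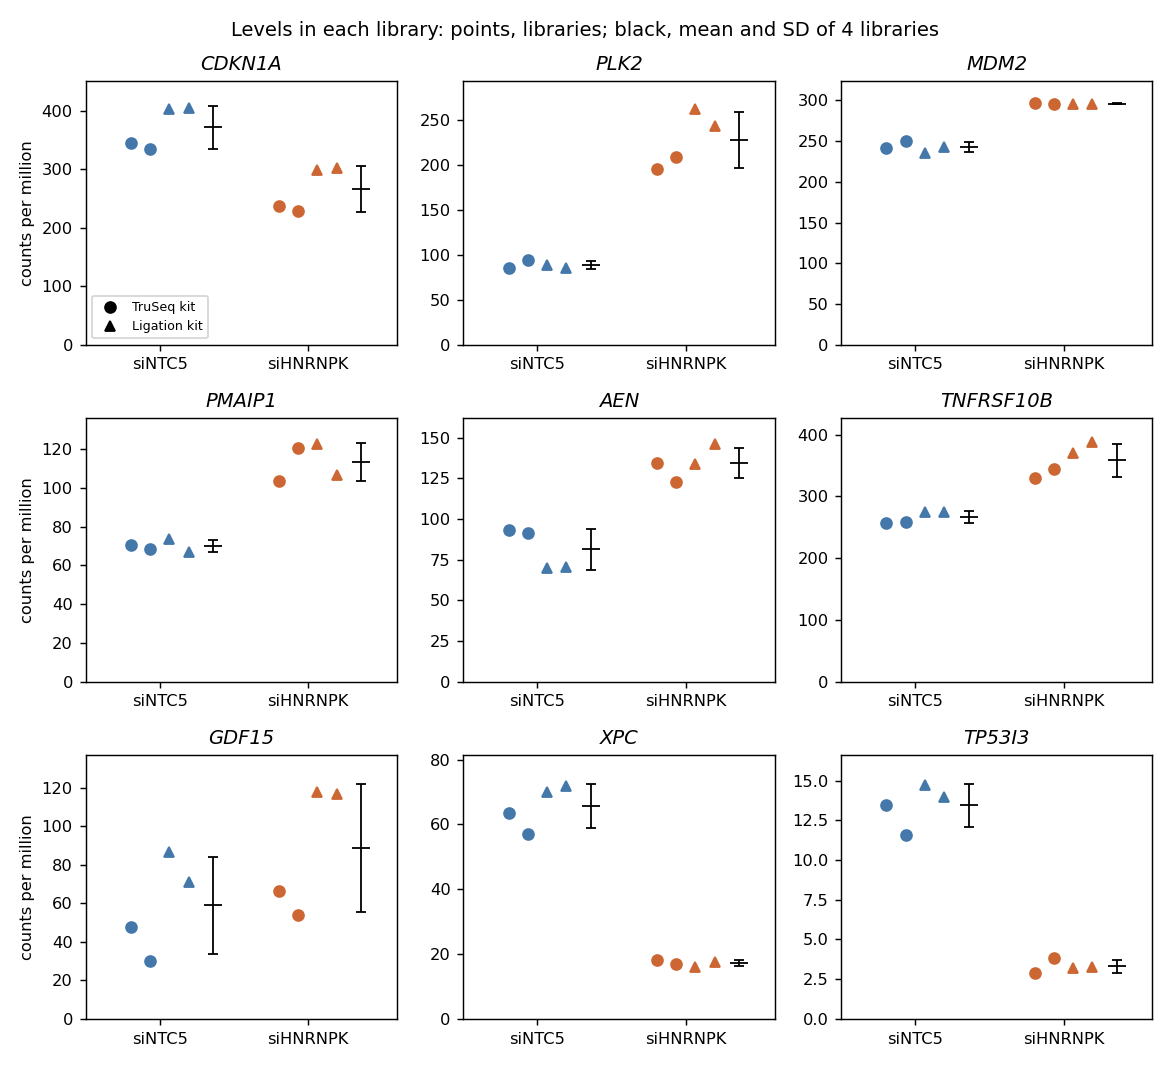
Each panel gives TMM-scaled CPM (y axis, from 0) in the 4 siNTC5 and 4 siHNRNPK libraries for 9 members, with circles for TruSeq, triangles for Ligation, and black marks for the mean and SD. GDF15 is the panel in which the groups overlap, and there the kits separate within each group.

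Of the 6 targets that act on mitochondrial apoptosis, 4 rose and 1 fell, where 35.5% of all genes were higher and 36.1% lower. PMAIP1 encodes NOXA, a BH3-only protein that neutralises MCL1. It stood at 70.7, 68.5, 73.9 and 66.9 CPM in siNTC5 replicates 1 to 4 and at 103, 121, 123 and 107 CPM in siHNRNPK replicates 1 to 4. All knockdown libraries were above all controls. PMAIP1 rose 1.62-fold, which is 0.70 ± 0.060 (SE) on the log2 scale (adjusted p 5.92e-09 by edgeR's quasi-likelihood test), and the kits alone gave 0.69 and 0.70.

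AEN, a nuclear exonuclease that aids apoptosis after DNA damage, has an exact half-site with its first base 34 bases before its start, shown in capitals (GRCh38.p14, chr15:88621090-88621339, plus strand, 5′ to 3′, inside the gene as RefSeq draws it because other transcripts start upstream).
AEN: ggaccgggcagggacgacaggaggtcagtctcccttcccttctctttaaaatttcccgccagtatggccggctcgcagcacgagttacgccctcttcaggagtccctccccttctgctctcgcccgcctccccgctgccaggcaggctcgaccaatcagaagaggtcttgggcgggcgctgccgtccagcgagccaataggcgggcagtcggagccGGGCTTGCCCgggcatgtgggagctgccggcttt
AEN stood at 93.2, 91.5, 70.0 and 70.3 CPM in siNTC5 replicates 1 to 4 and at 135, 123, 134 and 146 CPM in siHNRNPK replicates 1 to 4. The knockdown libraries were all above the controls, and among the controls the Ligation libraries were the low ones. AEN rose 1.66-fold (log2 fold change 0.73 ± 0.077 SE, adjusted p 1e-07 by edgeR). The size of its rise differed between kits, at 0.49 in the TruSeq and 0.99 in the Ligation libraries. The difference was 0.52 ± 0.091 (SE; adjusted p 0.0234 for the treatment by kit term in edgeR). AEN was the 1 member called there, or 3.57% of those tested, where 0.129% of all genes were called, 0.0718% with a larger and 0.0574% with a smaller value in the Ligation libraries. That call was lost when any 1 of siHNRNPK replicates 1, 2, 3 and 4 or siNTC5 replicates 3 and 4 was left out (adjusted p 0.0548 to 0.225 by edgeR), and it held without siNTC5 replicate 1 or 2.

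TRIAP1, a small protein that supports mitochondrial lipid transfer and holds back caspase activation, rose by 0.59 on the log2 scale, from 41.0 ± 6.40 to 61.6 ± 1.80 CPM (SD, n = 4 each), without overlap. BAX, the pore-forming executioner of the outer mitochondrial membrane, rose 1.35-fold, from 65.0 ± 1.28 to 88.0 ± 10.5 CPM, also without overlap. Their adjusted p-values by edgeR were 3.09e-07 and 8.13e-06. TP53INP1, which supports p53-dependent apoptosis and autophagy, fell slightly (log2 fold change -0.23 ± 0.079 SE, adjusted p 0.0127 by edgeR), with overlapping groups, and its adjusted p was 0.0530 without siHNRNPK replicate 3.

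BBC3, which encodes the BH3-only protein PUMA, is singled out after its values were seen. It stood at 11.1, 6.22, 21.0 and 18.6 CPM in siNTC5 replicates 1 to 4 and at 7.37, 5.34, 28.7 and 23.8 CPM in siHNRNPK replicates 1 to 4. Both knockdown TruSeq libraries were below both TruSeq controls, and both knockdown Ligation libraries were above both Ligation controls. Over all 8 libraries its log2 fold change was 0.09 ± 0.17 (SE), with an adjusted p of 0.645 by edgeR. The TruSeq libraries alone gave -0.41 and the Ligation libraries alone 0.40, and the difference between the kits was 0.81 ± 0.29 (SE; adjusted p 0.297 by edgeR). Without siNTC5 replicate 1 the log2 fold change was 0.30, with an adjusted p of 0.0177 by edgeR.

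Of the 3 tested cell-surface death receptors, only TNFRSF10B passed the test in this comparison, where 71.5% of all genes did. TNFRSF10B encodes DR5, a receptor for the ligand TRAIL. It stood at 257, 258, 275 and 274 CPM in siNTC5 replicates 1 to 4 and at 330.1, 344, 370.3 and 388 CPM in siHNRNPK replicates 1 to 4. All knockdown libraries were above all controls. TNFRSF10B rose 1.35-fold, which is 0.43 ± 0.040 (SE) on the log2 scale (adjusted p 1.91e-08 by edgeR's quasi-likelihood test). TNFRSF10A, the other TRAIL death receptor (DR4), was at 57.7 ± 6.62 and 59.1 ± 0.945 CPM, and FAS, the receptor for FAS ligand, at 17.7 ± 2.22 and 18.4 ± 0.753 CPM (SD, n = 4 each). Their adjusted p-values were 0.684 and 0.675 by edgeR, and the groups overlapped for both genes. EDA2R, a receptor for ectodysplasin A2, was too low to test.

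The survival regulator and the secreted target were both higher, where 35.5% of all genes were. PHLDA3, which opposes the kinase AKT at the membrane, rose 1.42-fold, from 20.9 ± 2.06 to 29.7 ± 4.83 CPM (SD, n = 4 each), with an adjusted p of 0.000103 by edgeR and no overlap. GDF15, a stress-induced cytokine of the TGF-beta superfamily, stood at 47.8, 30.0, 86.7 and 71.2 CPM in siNTC5 replicates 1 to 4 and at 66.5, 53.9, 118 and 117 CPM in siHNRNPK replicates 1 to 4. The groups overlapped, the Ligation libraries read higher than the TruSeq libraries in both, and within each kit both knockdown libraries were above both controls. GDF15 rose 1.53-fold (log2 fold change 0.61 ± 0.10 SE, adjusted p 3.03e-05 by edgeR), with 0.65 in the TruSeq and 0.57 in the Ligation libraries alone, and the adjusted p was 0.129 when the kit was not in the model.

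The DNA repair targets held the second largest decrease among the members. XPC recognises helix-distorting lesions and starts global nucleotide excision repair. Its RefSeq promoter, printed because the gene fell furthest of the repair targets, holds no exact half-site in the 300 bases searched (GRCh38.p14, chr3:14178602-14178851, minus strand, the 250 bases before the start, 5′ to 3′).
XPC: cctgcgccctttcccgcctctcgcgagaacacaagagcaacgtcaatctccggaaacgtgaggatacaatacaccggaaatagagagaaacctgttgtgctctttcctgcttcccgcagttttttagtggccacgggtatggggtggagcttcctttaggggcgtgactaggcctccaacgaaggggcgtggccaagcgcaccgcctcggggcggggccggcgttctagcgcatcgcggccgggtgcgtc
XPC stood at 63.6, 57.0, 70.2 and 72.0 CPM in siNTC5 replicates 1 to 4 and at 18.04, 17.1, 16.0 and 17.7 CPM in siHNRNPK replicates 1 to 4. The knockdown libraries formed a narrow band far below every control. XPC fell to 26.2% of the control mean, which is -1.92 ± 0.076 (SE) on the log2 scale (adjusted p 1.65e-13 by edgeR's quasi-likelihood test). XPC shares its locus with an antisense gene, XPC-AS1.

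DDB2, the partner of XPC in finding ultraviolet lesions, fell as well. It is the 1 member with a full p53 site in its windows, that is 2 exact half-sites 0 to 13 bases apart, which 0.0286% of the 34943 windows held. The site covers bases 6 to 26 of a DDB2 transcript (GRCh38.p14, chr11:47214979-47214999, plus strand, 5′ to 3′), with 1 base between the half-sites, which are in capitals.
DDB2: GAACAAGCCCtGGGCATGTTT
DDB2 was at 82.3 ± 10.2 CPM with siNTC5 and 47.0 ± 6.61 CPM with siHNRNPK (SD, n = 4 each), and the groups did not overlap. It fell to 57.1% of the control mean, which is -0.81 ± 0.062 (SE) on the log2 scale (adjusted p 1.3e-09 by edgeR's quasi-likelihood test).

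The other 2 genes of this role changed little. RRM2B, the p53-inducible subunit of ribonucleotide reductase that supplies deoxynucleotides, fell to 90.6% of the control mean (adjusted p 0.00844 by edgeR). POLK, a translesion DNA polymerase, rose 1.14-fold (adjusted p 0.0352 by edgeR). The call on POLK did not hold without any 1 of siHNRNPK replicates 1, 2 and 3 or siNTC5 replicates 1 and 3 (adjusted p 0.0598 to 0.145 by edgeR).

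The metabolic and mitochondrial targets were split. TP53I3 encodes PIG3, an oxidoreductase tied to oxidative stress downstream of p53, and had the largest decrease of all tested members. Its RefSeq promoter holds no exact half-site in the bases searched (GRCh38.p14, chr2:24084835-24085084, minus strand, the 250 bases before the start, 5′ to 3′).
TP53I3: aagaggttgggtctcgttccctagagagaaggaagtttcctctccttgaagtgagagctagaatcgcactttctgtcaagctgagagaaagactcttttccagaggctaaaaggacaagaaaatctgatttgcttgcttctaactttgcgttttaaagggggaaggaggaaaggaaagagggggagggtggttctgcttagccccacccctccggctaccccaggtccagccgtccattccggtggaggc
TP53I3 stood at 13.4, 11.6, 14.7 and 14.0 CPM in siNTC5 replicates 1 to 4 and at 2.90, 3.86, 3.20 and 3.29 CPM in siHNRNPK replicates 1 to 4. These rest on 221 to 278 counts per control library and 38 to 52 counts per knockdown library, and the groups lay far apart. TP53I3 fell to 24.6% of the control mean, which is -2.01 ± 0.13 (SE) on the log2 scale (adjusted p 1.16e-10 by edgeR's quasi-likelihood test). Its locus overlaps FAM228B.

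TIGAR, which diverts glucose from glycolysis to the pentose phosphate pathway, rose 1.53-fold, from 36.6 ± 3.01 to 56.4 ± 3.76 CPM (SD, n = 4 each), without overlap (adjusted p 2.63e-07 by edgeR). SESN1, a sestrin that restrains mTORC1, rose 1.13-fold (adjusted p 0.0333 by edgeR), a call that did not hold without any 1 of siHNRNPK replicates 2, 3 and 4 or siNTC5 replicates 2, 3 and 4 (adjusted p 0.0561 to 0.124 by edgeR). FDXR, ferredoxin reductase of the mitochondrial electron transfer to cytochrome P450 enzymes, was at 98.7 ± 19.1 and 92.2 ± 26.9 CPM (SD, n = 4 each) and was not called (adjusted p = 0.0936 by edgeR). Without siHNRNPK replicate 4 or siNTC5 replicate 4 its adjusted p was 0.0257 or 0.0180, with a log2 fold change of -0.18 in both. SPATA18, which acts in mitochondrial quality control, was at 0.584 to 0.799 CPM with siNTC5 and 0.371 to 0.658 CPM with siHNRNPK, too low to test.

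The RNA-linked targets were both higher without overlap between the groups, where 28.4% of all genes were. ZMAT3, a zinc finger RNA-binding protein that regulates splicing and mRNA stability, rose 1.32-fold, from 55.6 ± 4.69 to 73.2 ± 2.55 CPM (SD, n = 4 each). RPS27L, a ribosomal protein paralog that affects MDM2 and p53 turnover, rose 1.20-fold, from 57.9 ± 3.75 to 69.1 ± 3.07 CPM. Their adjusted p-values by edgeR were 3.52e-06 and 0.00053. Of all 30 members, 17 overlap another RefSeq gene and 9 overlap another protein-coding gene, so reads of those may be shared if strand was not used in counting, a setting not given in the sources used here.

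Genes that act on p53 moved in both directions. Of 38 regulators, 37 were tested, 17 (45.9%) were higher and 14 (37.8%) were lower, beside 35.5% and 36.1% of all genes, with a median log2 fold change of 0.15, beside -0.0042. PPP1R13L, the inhibitor iASPP that blocks p53's apoptotic targets, fell to 31.1% of control (log2 fold change -1.69). TP73, a paralog of p53 that binds similar elements, fell to 35.6% (log2 fold change -1.50). SIRT1, a deacetylase that acts on p53, rose 2.06-fold (log2 fold change 1.05).

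Further p53-activated genes, a list of 71 that excludes the members, moved in both directions. Of 66 tested, 19 (28.8%) were higher and 28 (42.4%) were lower, beside 35.5% and 36.1% of all genes, and the median log2 fold change was -0.13, beside -0.0042. The heparan sulfate proteoglycan GPC1 fell to 31.0% of control, the cytokine LIF to 31.9% and the mitochondrial protein FAM210B to 32.0%, with log2 fold changes of -1.73, -1.64 and -1.63. VWCE, a secreted von Willebrand factor domain protein, rose 2.78-fold (log2 fold change 1.48).

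Of 8 long noncoding RNAs linked to p53, 4 were tested and 3 were higher, where 35.5% of all genes were. MIR34AHG, the host transcript of the p53-induced miR-34a, rose by 1.27 on the log2 scale, NEAT1, the scaffold of nuclear paraspeckles, by 0.68, and PURPL, which restrains p53 levels, by 0.70, with adjusted p-values of 3.03e-09, 1.23e-09 and 0.0044 by edgeR. In the list of 30 cell cycle genes that p53 lowers through CDKN1A and the DREAM complex, 12 (40.0%) were higher and 7 (23.3%) were lower, beside 35.5% and 36.1% of all genes, with a median log2 fold change of 0.04. The replication helicase subunit MCM5 fell to 41.7% of control and the mitotic cyclin CCNB2 rose 1.56-fold.

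**Figure D3:**
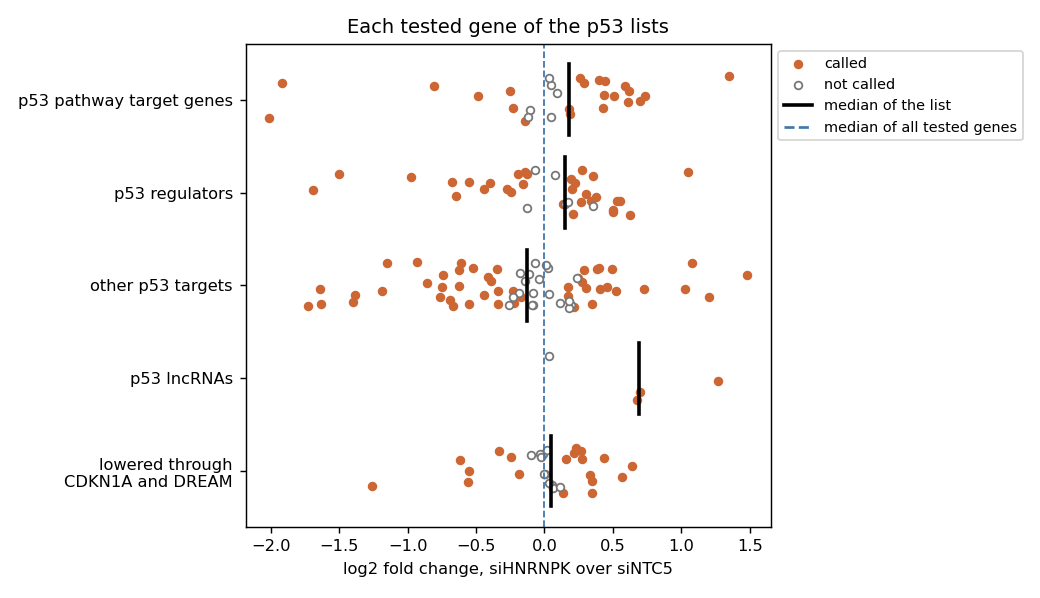
Each point is 1 tested gene, with the log2 fold change of siHNRNPK over siNTC5 on the x axis, the list on the y axis, filled points for called genes, black bars for list medians and a dashed line for the median of all tested genes (-0.0042). The members' bar is at 0.18 and that of the other p53 targets at -0.13, with points of every large list on both sides of the line.

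The 2 Scramble libraries give a further set of nontargeting controls. In 1 fit to all 10 libraries over 25527 shared gene names, 14642 genes and 29 members were tested, SPATA18 among them. Scramble differed from siNTC5 in many members: 21 of 29 (72.4%) were called by edgeR's quasi-likelihood test, against 69.3% of all genes. By direction 14 were higher, against 37.5% of all genes, and 7 lower, against 31.8%. With upper-quartile scaling, which moved the median of all genes from 0.04 to -0.10, 11 were higher and 9 lower. The shares of all genes by direction were not computed for upper-quartile scaling. Relative to the median of all genes, the members' median was 0.17 under both scalings. The siRNA, the RNA purification, the sequencing depth and the count table of the Scramble libraries cannot be told apart. DCP1B and ALOX5 of the other p53 targets, named after their values were seen, had 0 counts in every siNTC5 and siHNRNPK library. In the Scramble libraries they had 836 to 980 and 199 to 219 counts. Of that list, 66 genes were tested in the 8 libraries and 70 in the 10 libraries. Genes such as DCP1B and ALOX5 had enough counts only through the Scramble libraries, so their direction was fixed in advance. With such genes included, 36 were higher and 11 lower in Scramble than in siNTC5, where 37.5% and 31.8% of all genes were. The part of the count table in such differences was not tested.

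Against Scramble, 24 of 29 members (82.8%) were called after knockdown, beside 81.2% of all genes, with 10 higher, against 38.8%, and 14 lower, against 42.4%. Upper-quartile scaling, under which the median of all genes moved from -0.04 to 0.15, gave 12 higher and 11 lower, with no shares of all genes by direction computed. The members' median relative to all genes was -0.16 under both scalings. The comparisons share the siHNRNPK, Scramble and siNTC5 libraries pairwise, so their values are given side by side only, as in the plot of the 3 comparisons.

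**Figure D4:**
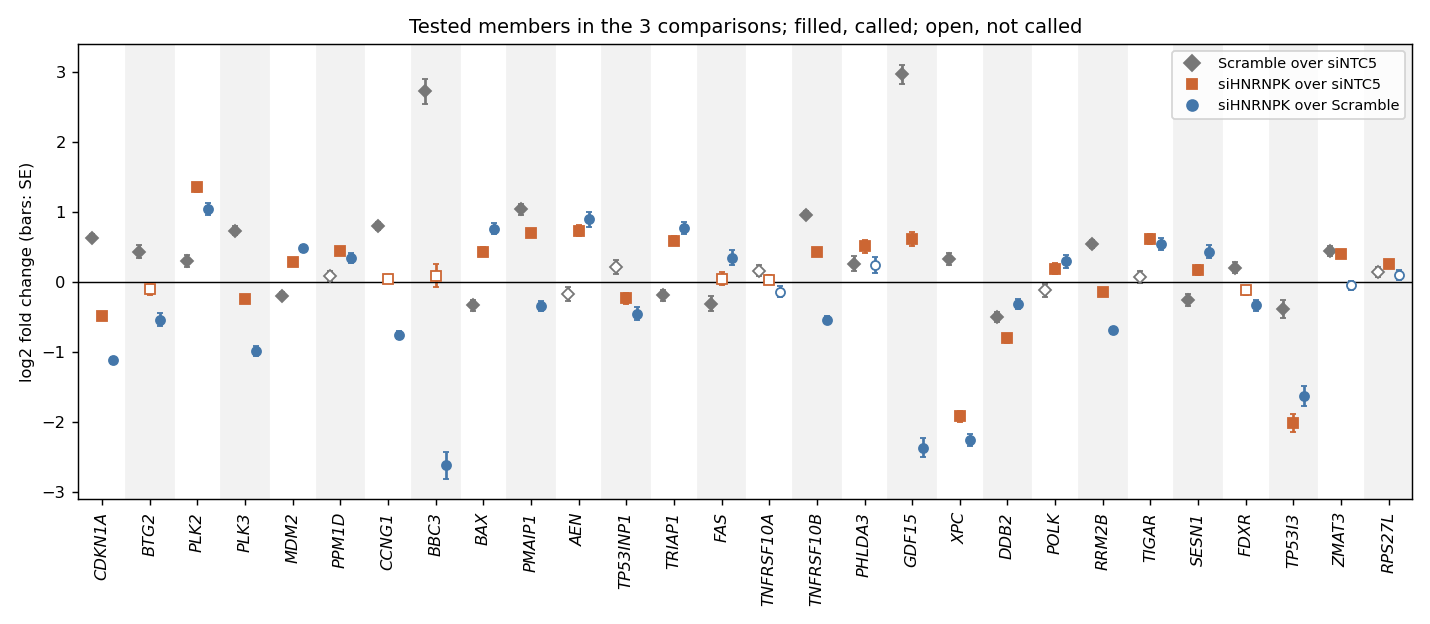
The y axis is the log2 fold change with its SE for each of 28 members in 3 comparisons, diamonds for Scramble over siNTC5, squares for siHNRNPK over siNTC5 and circles for siHNRNPK over Scramble, filled where called. GDF15 and BBC3 show the widest spread between comparisons, at 2.97 and 2.72 for Scramble over siNTC5, while XPC, TP53I3 and PLK2 keep their sign under either control.

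Of the 28 tested members, PMAIP1, TNFRSF10B and GDF15 were called in opposite directions after knockdown depending on the control. The share is near that of all genes, where 1098 of 13275 (8.27%) were. On the scale of the 10-library fit, GDF15 stood at 342 and 269 CPM in Scramble replicates 1 and 2, far above its range of 30.1 to 87.2 CPM with siNTC5 and 54.0 to 117 CPM with siHNRNPK. Its log2 fold change was 2.97 ± 0.13 (SE) for Scramble over siNTC5 and -2.36 ± 0.13 for siHNRNPK over Scramble, with adjusted p-values of 7.83e-13 and 1.1e-11 by edgeR. TNFRSF10B stood at 509 and 482 CPM in the Scramble replicates, above both other groups, and its log2 fold change for siHNRNPK over Scramble was -0.54 (adjusted p 1.09e-08 by edgeR). PMAIP1 stood at 135 and 150.0 CPM in them, and its log2 fold change for siHNRNPK over Scramble was -0.35 (adjusted p 0.000401 by edgeR), or -0.16 with an adjusted p of 0.0560 under upper-quartile scaling. The knockdown libraries of TNFRSF10B and PMAIP1 lay between the control sets, while those of GDF15 lay below the Scramble libraries and overlapped the siNTC5 libraries.

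CDKN1A stood at 515 and 517 CPM in the Scramble replicates, above every other library, and its log2 fold change for siHNRNPK over Scramble was -1.12. BBC3 stood at 50.6 and 45.6 CPM in them and differed by 2.72 between Scramble and siNTC5 and by -2.62 between siHNRNPK and Scramble on the log2 scale. CCNG1, not called against siNTC5, had a log2 fold change of -0.76 against Scramble. All of these passed edgeR's test, with adjusted p-values from 2.59e-13 to 4.92e-10. ZMAT3, RPS27L and PHLDA3, higher against siNTC5, were not called against Scramble. Their log2 fold changes there were -0.05, 0.10 and 0.24, with adjusted p-values of 0.509, 0.186 and 0.0578 by edgeR.

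The largest changes against siNTC5 held against Scramble, in comparisons that share the siHNRNPK libraries. The largest against Scramble did not hold: BBC3 (-2.62) and GDF15 (-2.36) were at 0.09 (not called) and 0.61 against siNTC5. Against Scramble, the log2 fold change of XPC was -2.25, that of TP53I3 -1.63 and that of PLK2 1.04, with adjusted p-values of 5.06e-14, 7.18e-09 and 3.11e-09 by edgeR. XPC stood at 78.7 and 77.9 CPM in Scramble replicates 1 and 2, TP53I3 at 10.1 and 9.43 CPM, and PLK2 at 98.6 and 110.3 CPM, all on the side of the siNTC5 libraries. MDM2, at 213 and 214 CPM in the Scramble replicates, was higher after knockdown by 0.48 against Scramble, and AEN was higher by 0.89. Of the 30 cell cycle genes lowered through CDKN1A and DREAM, 30 were lower in Scramble than in siNTC5, where 31.8% of all genes were. In siHNRNPK against Scramble 29 of them were higher, where 38.8% of all genes were, and 1, MCM5, was lower, where 42.4% were.

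The ChIP part gave 7 lists of domains for lamin B1 (LMNB1) and histone marks of repressed chromatin, 1 list per antibody and siRNA. The labels number replicates within each ChIP group, but the lists do not show them separately, so no test was run. For H3K9me2 there was a list from control cells only. A gene was placed in a domain when at least 50% of its body was covered. In control cells 4 of the 30 members (13.3%) lay in domains of H3K27me3, the mark of Polycomb repression, namely BTG2, AEN, TIGAR and SPATA18, where 22.7% of all genes with a position and 9.83% of tested genes did. The same 4 genes did after knockdown, where 20.9% of all genes with a position and 8.40% of tested genes did. SPATA18 is not among the tested genes, so the shares of tested genes do not cover it. BTG2, AEN and TIGAR had 100% of their bodies in such domains in both lists, and of these AEN and TIGAR rose and BTG2 was not called.

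Domains of lamina and H3K9 methylation held few members. EDA2R and SPATA18, the members too low to test in siHNRNPK against siNTC5, were those in control domains of LMNB1 and of H3K9me2, or 6.67% of the members for each. Of all genes with a position, 13.04% lay in those LMNB1 domains and 9.07% in those H3K9me2 domains. Of tested genes 2.96% and 1.20% did, a set that holds neither EDA2R nor SPATA18. EDA2R was also in LMNB1 domains after knockdown and in H3K9me3 domains in both conditions. The neighbours TNFRSF10A and TNFRSF10B lay in H3K9me3 domains in the knockdown list only, with 99.7% and 100% of their bodies covered. They did not share a domain of at least 100 kb, since fewer members lay in knockdown domains of that length, as given below. The nearest control domain was 1960.45 and 1790.13 kb away. The share of genes in H3K9me3 domains was 2.94% of tested genes and 9.43% of all genes with a position in the control list, and 5.90% and 13.3% in the knockdown list. TNFRSF10B rose in the knockdown and TNFRSF10A was not called, as given above.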

How the data were processed

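Members and lists were chosen with earlier results of these data known. The authors deposited whole-number counts per gene symbol. Per the submitters' processing notes, the 8 siNTC5 and siHNRNPK libraries were processed with STAR 2.7.1a and featureCounts of Subread 2.0.6 (hg38), and the Scramble libraries with STAR 2.7.1a, featureCounts and DESeq2, with hg19 and hg38 both named. The strand counted is not given in the sources used here. The authors' ChIP domain lists carry a deposited score per domain, whose unit is not given in the sources used here, from ChIP processed in hg38 with Bowtie2 2.5.1 and deepTools 3.1.3, per the submitters' processing notes. The caller and the pooling of replicates are not given in the sources used here.

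Counts were filtered (filterByExpr), scaled by TMM and fitted in edgeR 4.0.16 (R 4.3.3) with kit and treatment, and p-values were adjusted by Benjamini-Hochberg over all genes tested, with a threshold of 0.05. The fit with Scramble used all 10 libraries, with kit and group. Each SE of a log2 fold change was backed out of the quasi-likelihood F statistic. It is the absolute log2 fold change divided by the square root of F, so it holds the same information as the p-value. Scripts were tested on simulated data. Alternatives were other scalings, filters, models, DESeq2 1.42.0 and leaving out each library.

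Genes with values in every library were those called with a change of 1 or more on the log2 scale, CDKN1A, MDM2, those called for the kit term and those called in opposite directions by control set. From the other lists, up to 4 called genes with the largest change were named (2 for the DREAM list), and 1 gene is not reported here. Deviations of same-numbered libraries from their group means correlated across genes, which are not independent replicates, at r = 0.100 (replicate 1), 0.425 (2), 0.337 (3) and 0.265 (4), and at 0.058 and 0.0090 with the kit effect removed. A replicate block was therefore run as an alternative to kit. No pair of libraries agreed within sampling noise (chi-square per degree of freedom 2.24 to 25.2).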

Additional observations from a re-analysis of the deposited data

Results flagged for a closer look

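TNFRSF10A stood at 67.6 CPM in siNTC5 replicate 2, apart from the other 3 control libraries. The gap to the nearest library was 0.875 of the group's range, above Dixon's 95% critical value for 4 samples. In all 56 groups of 4 values were looked at, and chance marks about 1 in 20 such groups.

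AEN rose more in the Ligation than in the TruSeq libraries, by 0.52 on the log2 scale, in a test of the difference itself (adjusted p 0.0234 by edgeR's quasi-likelihood test). Replicate numbers and kit go together here, so kit and any other property shared by replicates 1 and 2 or by replicates 3 and 4 cannot be told apart.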

How the results depend on the processing

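Over the alternatives with no minimum fold change, 16 to 22 members were called in the knockdown comparison, 16 with Scramble added to the controls, 17 with no kit term and 19 to 22 with 1 library left out. A replicate block in place of kit called 22 members, with 0 member calls changed, and 9872 of all genes, beside 9968 with kit. Requiring a change of 1 or more on the log2 scale left 3 members, 3 regulators, 11 other p53 targets and 1 DREAM gene, where it left 15.8% of all genes. Scramble added to the controls left 18 regulators and 8 DREAM genes. The kit term was called in 3 members with no filter and in 0 to 4 with 1 library left out. Apart from the replicate block and the minimum change, the share of all genes called under these alternatives was not computed. A loss or gain of calls in the members therefore cannot be told from one over all genes. Half-sites were in 15 genes with up to 1 mismatch, and full sites in 1. Domains scored above their list's median held 1 member for H3K9me2 and 1 for control LMNB1, and knockdown H3K9me3 domains of at least 100 kb held 1 member.

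Of the members' values under these alternatives, 454 kept their direction and side of the threshold, 28 lost a call, 6 gained one and 16 changed sign, and 13 of 28 members kept both under every one. With Scramble added to the controls the log2 fold change was -0.21 for CCNG1, -0.98 for BBC3, -0.0107 for TNFRSF10A and -0.58 for GDF15. With the TruSeq libraries alone it was -0.41 for BBC3, -0.0685 for FAS and -0.0516 for TNFRSF10A, and with the Ligation libraries alone 0.0578 for BTG2 and 0.0056 for FDXR. TNFRSF10A was at -0.00503 with no filter. Leaving out 1 library took BBC3 as low as -0.0762 and up to 0.30, FAS from -0.0049 to 0.15 and TNFRSF10A from -0.0152 to 0.11. The cause was not tested. EDA2R and SPATA18, at 0 to 6 and 5 to 14 counts per library, could not be tested in the siNTC5 and siHNRNPK libraries alone. In the 10-library fit SPATA18, at 18 to 36 counts in Scramble, was not called. Its log2 fold change was -0.16 for Scramble over siNTC5 and -0.19 for siHNRNPK over Scramble (adjusted p 0.740 and 0.699 by edgeR).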

Other observations

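Of 4 long noncoding RNAs linked to p53 that were tested in the 10-library fit, 4 were called between the control sets, where 69.3% of all genes were. These need not be the 4 tested in the 8 libraries. In Scramble 3 were lower and 1 was higher, where 31.8% and 37.5% of all genes were. The higher one had a log2 fold change of 8.83, where those tested in siHNRNPK against siNTC5 ran from 0.0357 to 1.27. A gene can have enough counts for the 10-library fit through the Scramble libraries alone. The part of the count table in this value was not tested. On the scale of the 10-library fit, NEAT1 stood at 70.8 to 75.0 CPM in the Scramble libraries and MIR34AHG at 0.821 to 1.28 CPM. Their log2 fold changes for Scramble over siNTC5 were -2.88 and -3.04, with adjusted p-values of 4.29e-16 and 6.54e-11 by edgeR's quasi-likelihood test, where both rose with siHNRNPK against siNTC5. MDM4, the partner of MDM2 that also binds p53 and is named here after its value was seen, rose 1.42-fold in the knockdown (adjusted p 4.18e-08 by edgeR).

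Summed over the 30 members, the level was 2276 to 2540 CPM with siNTC5, 2499 to 2924 CPM with siHNRNPK and 3288 to 3349 CPM with Scramble.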
